A study of Mus musculus with 26 samples.

Results

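The formative genes and Zic factors described here are 7 genes: the transcription factor genes Otx2, Zic2, Zic5, Pou3f1, Etv4 and Etv5, and the growth factor gene Fgf5. They were chosen by name, for their known roles as the cell leaves naive pluripotency, from the 25239 genes of the full tables, and all 7 were present in each of the 6 deposited tables. The question put to them was whether mouse embryonic stem cells that lack HMCES, a protein that binds and shields abasic sites in DNA, are shifted towards the formative or primed state, and whether each knockout line shows it. RNA sequencing covered 26 libraries, wild type (WT) or with a knockout of Hmces (HMCES-KO), from cells given as C57BL/6 that were grown with serum on gelatin-coated plates. A count table held 6 libraries without treatment, with 2 WT columns and 2 columns each for knockout lines named KO7 and KO8. A separate table of TPM values (transcript levels, as reads scaled by gene length to a sum of 1000000 per library) held 2 WT and 2 HMCES-KO libraries without treatment. A further 4 TPM tables each held 2 WT libraries, 1 of the labelled line KO1 and 1 of the labelled line KO2, after a treatment of 2 h: activin A at 50 ng/ml, SB431542 at 10 µM (an inhibitor of the activin and Nodal type I receptors), BMP4 at 10 ng/ml or LDN193189 at 50 nM (an inhibitor of the BMP type I receptors). In the untreated TPM table the WT columns are named CCE1 and CCE2 and the knockout columns K81 and K82. Which of the labelled lines KO1 and KO2 is KO7 or KO8, which line the knockout columns of the untreated TPM table came from, how Hmces was disrupted, and whether a line is a single clone are not given in the sources used here.

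Naive embryonic stem cells resemble the cells of the early epiblast before implantation. On the way to germ layer competence they pass through a formative state, in which OTX2 and POU3F1 (also called OCT6) act with OCT4 at new enhancers, Fgf5 is switched on, and naive factors are switched off, and then reach the primed state of the later epiblast. ZIC2 and ZIC5 are zinc finger transcription factors of the epiblast and early neural tissue. ETV4 and ETV5 are ETS factors that are induced by FGF signalling through ERK, which also drives the exit from the naive state.

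Zic2 and Zic5 lie side by side and are transcribed away from each other on mouse chromosome 14 (mm10). Zic5 spanned chr14:122459160-122465658 on the minus strand, Zic2 spanned chr14:122475384-122480328 on the plus strand, and their starts were 9726 bases apart. Otx2 lies elsewhere on the same chromosome, at chr14:48657677-48667644 on the minus strand. The other members were Pou3f1 at chr4:124657646-124660655 (plus strand, 1 exon), Fgf5 at chr5:98254184-98277033 (plus strand), Etv4 at chr11:101769748-101785310 (minus strand) and Etv5 at chr16:22381313-22439570 (minus strand). RefSeq promoter windows on GRCm38.p6 were found for 4 of the 7 members, Otx2, Zic5, Fgf5 and Etv5. The 250 bases before the start are shown for Zic5, which was higher in the knockout, at chr14:122465659-122465908, and for Otx2, which differed between the untreated lines, at chr14:48667645-48667894, both on the minus strand and written 5′ to 3′ in the gene's direction. Capitals mark matches on either strand to 5 motifs: the SMAD box CAGAC, the BMP-type SMAD box GGCGCC, the ETS core CCGGAA, the OTX site GGATTA and the octamer ATGCAAAT.
Zic5: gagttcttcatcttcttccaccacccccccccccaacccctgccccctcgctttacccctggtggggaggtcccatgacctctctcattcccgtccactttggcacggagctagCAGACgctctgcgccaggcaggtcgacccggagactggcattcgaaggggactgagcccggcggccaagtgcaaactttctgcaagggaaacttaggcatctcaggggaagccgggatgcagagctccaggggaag
Otx2: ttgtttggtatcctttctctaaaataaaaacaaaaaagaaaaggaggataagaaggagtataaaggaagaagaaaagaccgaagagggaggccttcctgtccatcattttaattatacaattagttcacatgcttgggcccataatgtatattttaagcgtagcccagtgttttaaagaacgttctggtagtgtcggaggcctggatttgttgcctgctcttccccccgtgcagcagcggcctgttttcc
The Zic5 window held 1 match, a CAGAC, and 42.2% of 32817 such windows in the table hold that motif on either strand. The Otx2 window held none of the 5 motifs. The other 4 motifs were in 9.59% (GGCGCC), 12.02% (CCGGAA), 6.25% (GGATTA) and 1.60% (ATGCAAAT) of all windows. The Zic5 window had 11 CpG dinucleotides and a GC content of 62.4%, the Otx2 window had 6 and 42.0%, and the median of all windows was 6 CpG.

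The targeted gene was lower in every HMCES-KO library than in the WT libraries of its table but was still read. Relative to the WT mean, Hmces stood at 38.2% and 38.8% in KO7, 26.5% and 24.9% in KO8, and 21.2% and 22.1% in the untreated TPM libraries. In the treated tables it was 51.7% to 64.1% in line KO1 and 25.03% to 34.0% in line KO2. Counts summed to 9571113 to 13512922 per library in the count table, and the whole reads recovered from the TPM values summed to 8524110 to 10037099 in the untreated table and 3191278 to 4240761, over the genes solved, in the treated tables. Embryonic stem cell markers were high throughout, their 8 genes summing to 11010 to 11265 TPM in the count table. The 6 fibroblast markers, which would mark feeder cells, summed to 290 to 322 TPM in WT and 228 to 255 TPM in the knockout lines of the count table, with Col1a2 and Col3a1 below 1 TPM in every library. Whether replicates were separate cultures is not stated in the labels; if they were not, a p-value covers technical spread only. Fewer cells of a type and less RNA per cell cannot be told apart in these bulk libraries.

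Ranked by TPM, which allows for gene length, the WT libraries of the count table read Etv4 (364 and 415), Etv5 (320 and 297), Pou3f1 (35.6 and 36.1), Otx2 (30.03 and 26.3), Zic2 (18.3 and 18.8), Zic5 (7.52 and 6.69) and Fgf5 (1.93 and 1.19), and no neighbours in that order overlapped. In KO7 the level of Zic2 (50.8 and 51.6 TPM) lay above Pou3f1 (43.8 and 41.1) and Otx2 (19.7 and 23.7), and Etv5 (337 and 348) lay above Etv4 (263 and 263). In KO8, Zic2 (42.7 and 51.3 TPM) also lay above Pou3f1 (33.2 and 36.0) and Otx2 (37.0 and 35.6), whose levels overlapped, and Etv5 (341 and 337) above Etv4 (264 and 261). The gene models behind the treated tables differ from those of the count table, so levels are not compared across them.

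Members were called both higher and lower in HMCES-KO than in WT. Effects of losing Hmces and of the line itself cannot be told apart here. Adjusted p-values are Benjamini-Hochberg over all genes tested, from edgeR's quasi-likelihood test on counts and from limma on log2(TPM + 1), and a gene is called at an adjusted p below 0.05. Against WT, the mean of KO7 and KO8 had 3 of 7 members higher (Zic2, Zic5, Etv5) and 1 lower (Etv4), where 40.6% of all 13475 genes tested were called. In KO7 alone, 4 were higher (Zic2, Zic5, Pou3f1, Etv5) and 2 lower (Etv4, Otx2), against 38.2% of genes called. In KO8 alone, 3 were higher (Zic2, Otx2, Etv5) and 1 lower (Etv4), against 38.9%. These comparisons share their 2 WT libraries. In the untreated TPM table, where Fgf5 did not reach the minimum of 1 TPM in 2 libraries, 2 of 6 were higher (Zic2, Otx2) and 2 lower (Pou3f1, Etv4), against 16% of 13314 genes. Over the 4 treated tables, 3 of 7 were higher (Zic2, Zic5, Fgf5) and 1 lower (Etv4), against 34.5% of 12608 genes. Fgf5 passed the same minimum there only with the HMCES-KO libraries.

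**Figure D1:**
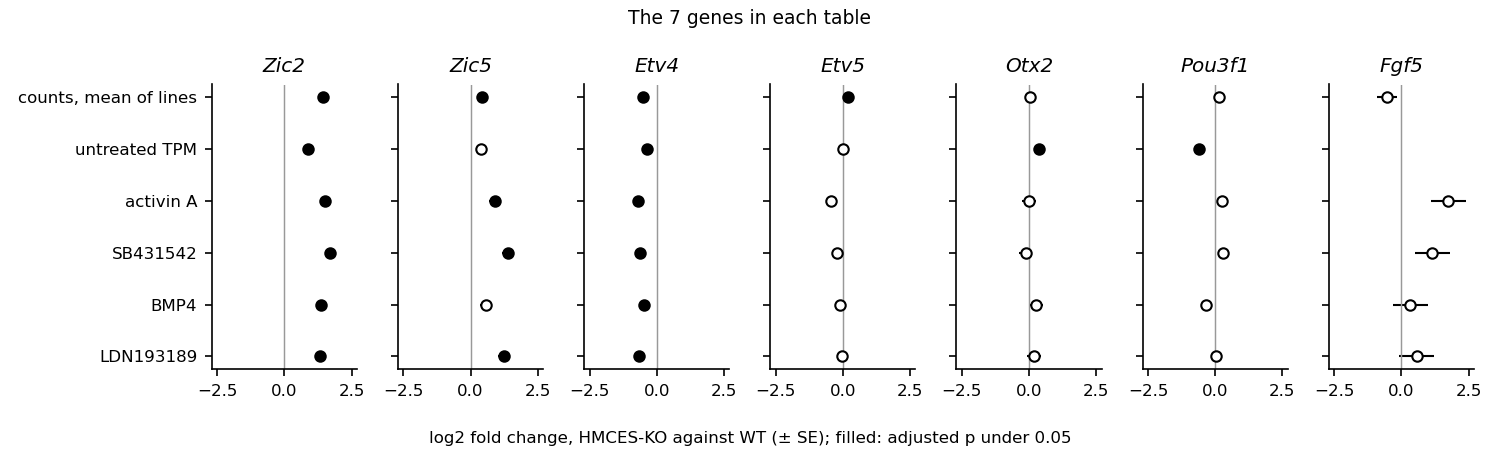
Log2 fold change of HMCES-KO against WT (x axis, ± SE) for each of the 7 genes, with 1 row for each of the 6 tables; filled points have an adjusted p below 0.05. Zic2 lies right of 0 and Etv4 left of 0 with a filled point in all 6 rows, while Otx2, Pou3f1 and Etv5 lie on both sides of 0 and Fgf5 has wide errors.

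Zic2, a transcription factor gene of the epiblast and neural plate, was higher in every HMCES-KO library than in any WT library of the same table, in 6 of 6 tables. With 2 WT libraries per table, such a separation can arise by chance. The share of all genes separated in this way, within tables or across treatments, is not given here. In the count table it had 236 and 206 reads in WT, 739 and 548 in KO7 and 439 and 578 in KO8, which is 19.1 and 20.2 CPM (counts per 1000000, with library sizes scaled by edgeR's TMM factors) in WT, 55.8 and 56.3 in KO7 and 46.2 and 56.0 in KO8. The log2 fold change was 1.45 ± 0.09 (SE, n = 2 libraries per group, edgeR adjusted p 5.7e-10) for the mean of the lines, 1.51 ± 0.10 in KO7 and 1.38 ± 0.11 in KO8. KO8 minus KO7 was -0.13 ± 0.09 (edgeR adjusted p 0.33, interval of ± 1.96 SE from -0.31 to 0.05), and 28.2% of genes were called between these lines.

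The untreated TPM libraries showed a smaller difference, and the treated libraries one of the size seen in the counts. Zic2 had 22.1 and 22.7 TPM in the untreated WT libraries and 38.7 and 45.3 TPM in the HMCES-KO libraries, a log2(TPM + 1) difference of 0.87 ± 0.10 (limma adjusted p 0.0058, and 0.050 without a variance trend). Over the treated tables the 8 WT libraries ran from 21.0 TPM through a median of 35.1 to 43.5 TPM, and the 8 HMCES-KO libraries from 77.9 through 95.5 to 116 TPM. The ranges did not overlap even across treatments. The mean difference was 1.48 ± 0.07 (limma adjusted p 5.2e-08). For this and the other means over the treated tables, SE and p cover spread between libraries, not between knockout lines. Within tables the Zic2 difference was 1.53 ± 0.13 (activin A), 1.70 ± 0.13 (SB431542), 1.36 ± 0.13 (BMP4) and 1.31 ± 0.13 (LDN193189), each called. Fitted alone with its 4 libraries, the LDN193189 table did not call Zic2 (limma adjusted p 0.084). The share of all genes called in those fits was 12.1%, 12.1%, 6.33% and 2.29%, in that order. With the replicate block, 1353 genes were called under BMP4 in place of 798, and 703 under LDN193189 in place of 289. The labelled lines gave 1.48 ± 0.09 each, where 32.7% of genes were called in line KO1 and 28.9% in line KO2, and the difference between them was 0.00 ± 0.10 (interval of ± 1.96 SE from -0.20 to 0.20), where 6.58% of genes were called.

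Zic5, the neighbouring family member, was also higher, with more spread. Its counts were 78 and 59 in WT, 128 and 85 in KO7 and 75 and 68 in KO8, or 6.32 and 5.79 CPM in WT, 9.66 and 8.73 in KO7 and 7.89 and 6.59 in KO8. KO7 lay clear of WT, whereas the lower KO8 library was just above the higher WT library, and scaled by library totals alone it fell just below it (6.54 against 6.55 CPM). On the log2 scale the change was 0.60 ± 0.19 in KO7 (edgeR adjusted p 0.015) and 0.25 ± 0.20 in KO8 (edgeR adjusted p 0.34), and the mean of the lines was 0.43 ± 0.17 (edgeR adjusted p 0.048). KO8 minus KO7 was -0.35 ± 0.19 and was not called (edgeR adjusted p 0.17, interval of ± 1.96 SE from -0.72 to 0.01). The call on the mean was lost under library size scaling (adjusted p 0.092), upper quartile scaling (0.073), under DESeq2 (0.18), with the HMCES-KO libraries as 1 group (0.18) and without any 1 of the libraries other than KO8 replicate 2 (0.062 to 0.15), and the KO7 call under DESeq2 (0.088) and without KO7 replicate 1 (0.13).

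Zic5 read 4.69 and 3.63 TPM in WT and 5.31 and 6.07 TPM in HMCES-KO in the untreated TPM table, a difference of 0.38 ± 0.19 that was not called (limma adjusted p 0.21). Under the treatments Zic5 ran from 4.69 TPM through a median of 7.38 to 12.7 TPM in the 8 WT libraries and from 13.8 through 15.95 to 22.2 TPM in the 8 HMCES-KO libraries, again with no overlap. The share of all genes separated in this way is not given here either. The mean difference was 1.02 ± 0.11 (limma adjusted p 2.1e-05), with 1.10 ± 0.15 in line KO1 and 0.94 ± 0.15 in line KO2. It was called under activin A (0.92 ± 0.22), SB431542 (1.38 ± 0.22) and LDN193189 (1.23 ± 0.22), and not under BMP4 (0.57 ± 0.22, limma adjusted p 0.15), where the 2 WT libraries read 10.6 and 12.7 TPM, the highest of the WT libraries. The activin A call was lost without any 1 of its own 4 libraries (adjusted p 0.054 to 0.12), and the LDN193189 call without either of its WT libraries or its KO1 library (0.068 to 0.13) or with that table fitted alone (0.19).

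**Figure D2:**
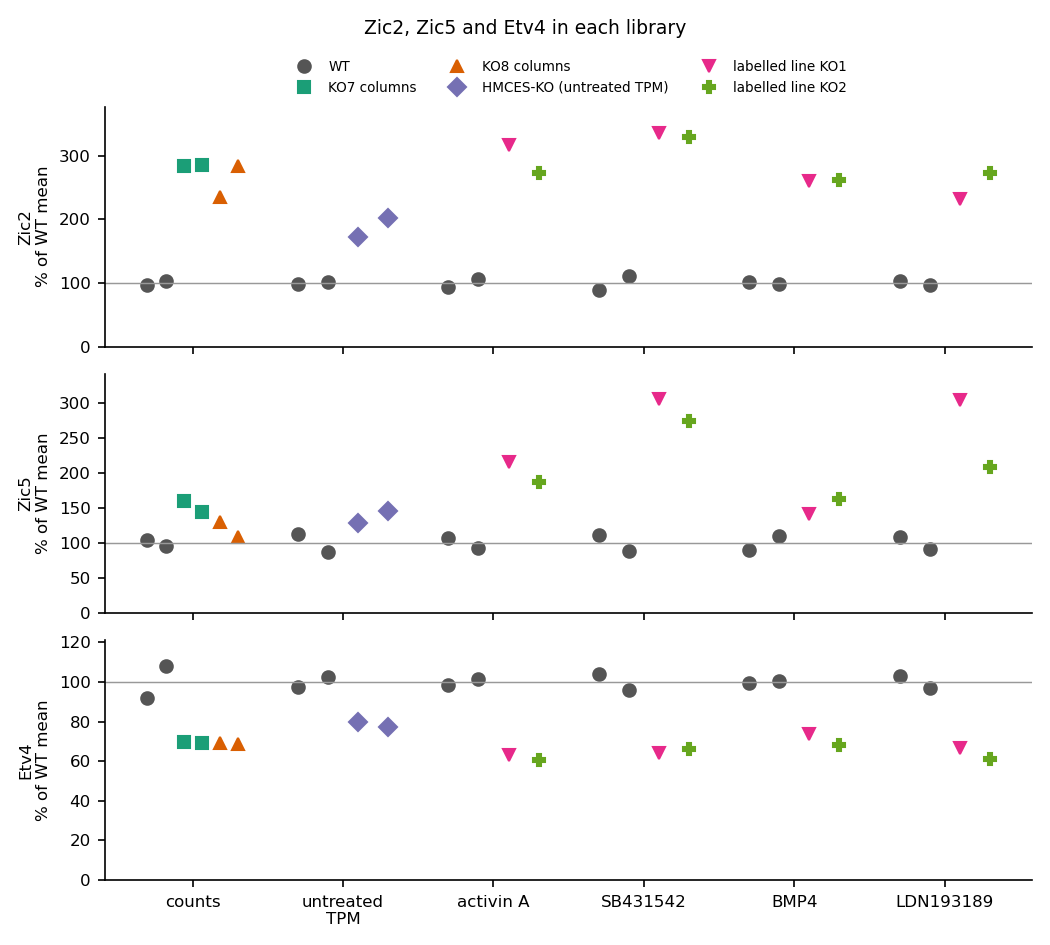
Zic2, Zic5 and Etv4 in each library as a percent of the WT mean of its table (y axis, from 0), by table on the x axis; marker shapes give the group or line, and the grey line is 100%. All HMCES-KO points of Zic2 and Zic5 lie above those of WT and all of Etv4 below, with the smallest gap for Zic5 in KO8.

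A noncoding transcript between the pair, 2610035F20Rik, was looked at after its values were seen. It spanned chr14:122470377-122475199 on the minus strand and its start lay 185 bases from that of Zic2. Its counts were 7 and 26 in WT, 76 and 57 in KO7 and 50 and 50 in KO8, a log2 fold change of 1.86 ± 0.34 for the mean of the lines (edgeR adjusted p 0.0002). It read 5.78 and 4.03 TPM in WT and 9.02 and 10.3 TPM in HMCES-KO in the untreated TPM table, a difference of 0.86 ± 0.19 (limma adjusted p 0.034). It was not among the genes shared by the treated tables. The counting command in the file header sets no strand option, and reads of a gene and of an overlapping antisense transcript could then not be told apart; the exons of 2610035F20Rik do not overlap those of Zic2 or Zic5.

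Neuroectoderm genes, from a tissue in which the Zic factors are also active, were more often higher than lower against WT. Of the 13 neuroectoderm genes listed, 7 were tested in the count table and 6 rose in the mean of the lines and none fell, where 40.6% of all genes were called. Pax6 (1.66 ± 0.21), Tubb3 (0.89 ± 0.06) and Sox11 (0.57 ± 0.09) changed the most. By line, 5 rose and none fell in KO7 (38.2% of all genes called), while 4 rose and Msi1 fell (-0.58 ± 0.22) in KO8 (38.9%). Against KO7, the KO8 line had Nes higher and 4 genes lower (28.2%). Their summed level was 210 to 216 TPM in WT, 397 to 418 in KO7 and 284 to 313 in KO8, while Pax3, Neurog2, Six3, Fabp7 and Dcx stayed below 1 TPM in every library, 2 of the 13 genes at 0. Of those tested in the untreated TPM table, 4 of 7 rose and none fell, against 16% of all genes called. The sum was 189 to 201 TPM in WT and 245 to 273 TPM in HMCES-KO. After treatment, 2 of 6 tested rose and none fell, near the 34.5% of all genes called there, with sums of 738 to 1043 TPM in WT, 893 to 1360 TPM in line KO1 and 831 to 1222 TPM in line KO2, which overlapped. Line KO1 had 3 higher and Nes lower (-0.44 ± 0.12), against 32.7% of all genes called, and line KO2 had 3 higher and none lower, against 28.9%. Their part in the Zic2 and Zic5 values was not tested.

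Etv4, an ETS factor gene that serves as a readout of FGF signalling, was lower in all HMCES-KO libraries than in the WT libraries of its table, in 6 of 6 tables. As for Zic2, the share of all genes separated in this way is not given. It had 299 and 352 CPM in WT, 227 and 226 in KO7 and 224 and 224 in KO8, so that the 4 knockout libraries lay within a few CPM of each other while the WT pair was wider apart. The log2 fold change was -0.53 ± 0.06 for the mean of the lines (edgeR adjusted p 3.3e-07), -0.52 ± 0.06 in KO7 and -0.54 ± 0.07 in KO8. Etv4 in the untreated TPM table read 302 and 319 TPM in WT and 248 and 240 TPM in HMCES-KO, a difference of -0.35 ± 0.04 (limma adjusted p 0.0079, and 0.075 without a variance trend). Over the treated tables it ran from 294 TPM through 301 to 333 TPM in WT and from 182 through 203 to 219 TPM in HMCES-KO, with no overlap across treatments. The mean difference was -0.61 ± 0.04 (limma adjusted p 6.7e-07), with -0.58 ± 0.05 in line KO1 and -0.64 ± 0.05 in line KO2. It was called in each treated table, from -0.49 ± 0.08 under BMP4 to -0.69 ± 0.08 under activin A, and the BMP4 call was lost without WT replicate 2 of that table (limma adjusted p 0.057) or with the table fitted alone (0.087), as was the LDN193189 call with its table alone (0.16).

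Etv5, the close relative of Etv4, did not follow it. Its CPM was 555 and 530 in WT, 614 and 630 in KO7 and 610 and 609 in KO8, so all 4 knockout libraries were above WT by a small margin. The log2 fold change was 0.18 ± 0.04 for the mean of the lines (edgeR adjusted p 0.0028), 0.20 ± 0.05 in KO7 and 0.17 ± 0.05 in KO8, and the call on the mean was lost with the HMCES-KO libraries as 1 group (adjusted p 0.061). The calls in the single lines were lost with library size scaling (adjusted p 0.051 and 0.071), in KO7 without KO7 replicate 2 (0.082), and in KO8 without either KO8 library (0.10 and 0.096). Etv5 in the untreated TPM table read 298 and 296 TPM in WT and 300 and 296 TPM in HMCES-KO, a difference of 0.01 ± 0.03 (limma adjusted p 0.93).

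Under the 4 treatments Etv5 was lower in line KO2. The WT libraries ran from 125 TPM through a median of 146 to 172 TPM. Line KO1 read 134, 134, 144 and 152 TPM under activin A, SB431542, BMP4 and LDN193189, and line KO2 read 106, 124, 108 and 112 TPM. Each KO2 library was below both WT libraries of its table, while KO1 was below them in the first 2 tables, between them under BMP4 and above them under LDN193189. The difference from WT was -0.36 ± 0.08 in line KO2 (limma adjusted p 0.0028) and -0.04 ± 0.08 in line KO1 (limma adjusted p 0.73), and KO2 minus KO1 was -0.32 ± 0.09 (limma adjusted p 0.044, 0.058 with the replicate block and 0.10 without a variance trend). That last call was lost without any 1 of 11 libraries (adjusted p 0.053 to 0.16), among them the KO1 libraries under BMP4 and LDN193189. Over both lines Etv5 was not called (-0.20 ± 0.08, limma adjusted p 0.080); with the replicate block it was (adjusted p 0.013), and so was the activin A table (-0.43 ± 0.17, adjusted p 0.11 without the block and 0.021 with it).

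Otx2, the homeobox gene that drives entry into the formative state, went opposite ways in the 2 lines of the count table. It had 28.5 and 25.7 CPM in WT, 19.6 and 23.5 in KO7 and 36.3 and 35.3 in KO8, so KO7 lay wholly below WT and KO8 wholly above it. The log2 fold change was -0.35 ± 0.11 in KO7 (edgeR adjusted p 0.021) and 0.40 ± 0.11 in KO8 (edgeR adjusted p 0.0069), their mean was 0.03 ± 0.10 (edgeR adjusted p 0.86), and KO8 minus KO7 was 0.74 ± 0.11 (edgeR adjusted p 3.6e-05). The KO7 call was lost under DESeq2 (adjusted p 0.11), without KO7 replicate 1 (0.33) and without WT replicate 1 (0.11), and the KO8 call without KO8 replicate 1 (0.057), while the difference between the lines held under each alternative run. Trophectoderm markers also differed between these lines: their 6 genes summed to 79.5 to 81.3 TPM in WT, 68.0 to 72.6 TPM in KO7 and 160 to 165 TPM in KO8, with Elf5 below 1 TPM in every library. Of 5 tested, 3 were higher in KO8 than in KO7, Krt18 (2.13 ± 0.22), Tfap2c (1.19 ± 0.07) and Krt8 (0.92 ± 0.19), where 28.2% of all genes were called. The part of these markers in the Otx2 and Pou3f1 values was not tested. Otx2 in the untreated TPM table read 26.5 and 27.0 TPM in WT and 33.2 and 36.0 TPM in HMCES-KO, a difference of 0.36 ± 0.08 (limma adjusted p 0.035) whose call was lost without either WT library (0.13 and 0.11) or HMCES-KO replicate 2 (0.11), without the filter on low values (0.059) and without a variance trend (0.078).

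Under treatment the Otx2 levels of WT and knockout overlapped. The WT libraries ran from 24.6 TPM through a median of 29.6 to 33.7 TPM. Line KO1 read 34.0, 24.4, 25.01 and 26.6 TPM under activin A, SB431542, BMP4 and LDN193189, and line KO2 read 28.5, 28.2, 44.7 and 39.4 TPM. Line KO2 stood above both WT libraries under BMP4 and LDN193189 only. The mean difference was 0.08 ± 0.13 (limma adjusted p 0.68), with -0.09 ± 0.13 in line KO1, 0.24 ± 0.13 in line KO2 and 0.33 ± 0.16 for KO2 minus KO1 (limma adjusted p 0.25), none of them called.

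Pou3f1, the POU factor gene that marks formative and early neural cells, also differed between the untreated lines. It had 37.8 and 39.4 CPM in WT, 48.8 and 45.5 in KO7 and 36.4 and 39.8 in KO8, with KO7 above WT and KO8 overlapping it. The log2 changes were 0.29 ± 0.09 in KO7 (edgeR adjusted p 0.014) and -0.02 ± 0.09 in KO8 (edgeR adjusted p 0.90), and KO8 minus KO7 was -0.31 ± 0.09 (edgeR adjusted p 0.015). The KO7 call was lost with library size scaling (adjusted p 0.060), DESeq2 (0.066) and without KO7 replicate 1 (0.16), and the difference between the lines under DESeq2 (0.078) and without KO7 replicate 1 (0.18) or KO8 replicate 1 (0.17). In the untreated TPM table the direction was the other one: Pou3f1 read 26.1 and 27.1 TPM in WT and 15.97 and 18.9 TPM in HMCES-KO, a difference of -0.59 ± 0.11 (limma adjusted p 0.021, 0.071 without a variance trend, and 0.075 and 0.093 without WT replicate 1 or 2).

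Under treatment, Pou3f1 ran from 68.8 TPM through a median of 72.9 to 77.5 TPM in WT. Line KO1 read 80.1, 83.9, 50.3 and 57.7 TPM under activin A, SB431542, BMP4 and LDN193189, and line KO2 read 95.8, 97.7, 69.5 and 88.8 TPM. Line KO2 lay above both WT libraries of its table in all but the BMP4 table, and line KO1 lay above them in the first 2 tables and below them in the other 2. The difference from WT was 0.06 ± 0.09 over both lines (limma adjusted p 0.64), -0.13 ± 0.10 in line KO1 and 0.26 ± 0.10 in line KO2 (limma adjusted p 0.068), and KO2 minus KO1 was 0.39 ± 0.12 (limma adjusted p 0.058). On reads recovered from the TPM values, edgeR called line KO2 (0.30 ± 0.10, adjusted p 0.018) and KO2 minus KO1 (0.35 ± 0.11, adjusted p 0.047).

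**Figure D3:**
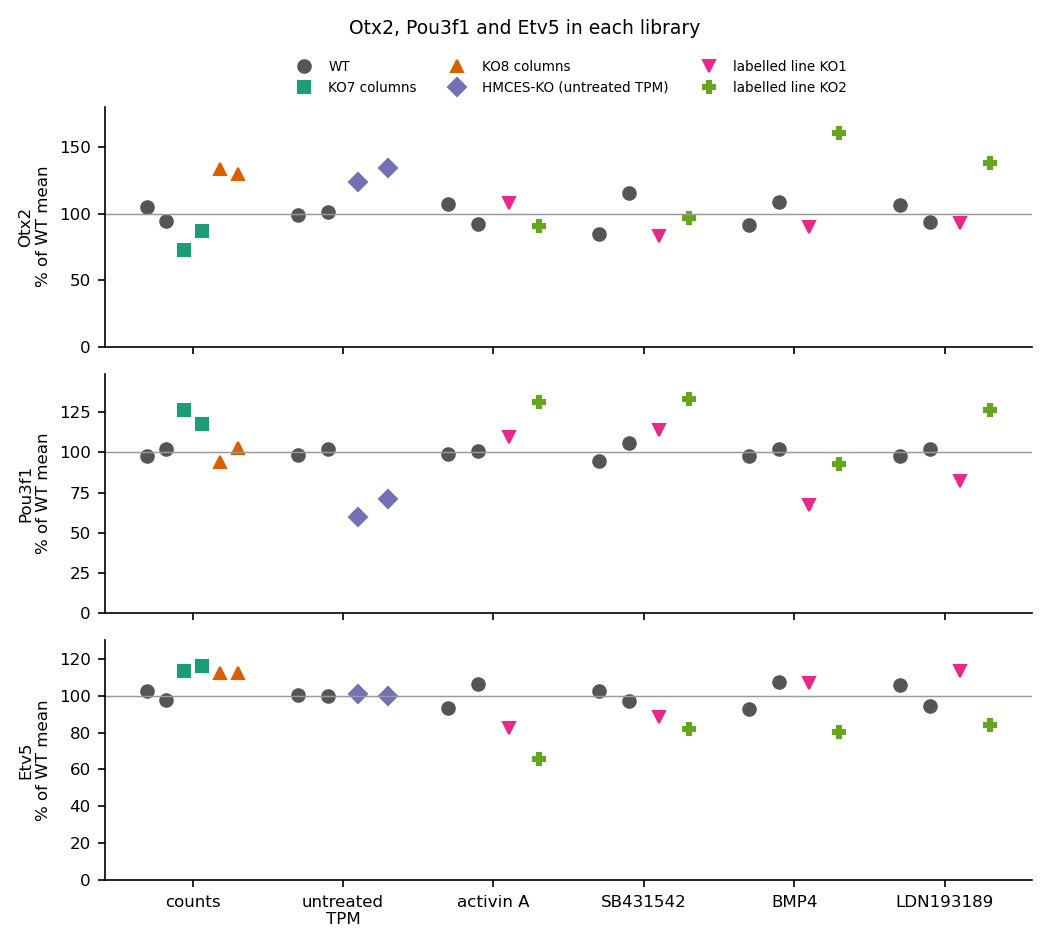
Otx2, Pou3f1 and Etv5 in each library as a percent of the WT mean of its table (y axis, from 0), by table on the x axis, with marker shapes for the group or line and a grey line at 100%. Otx2 lies below WT in KO7 and above it in KO8, Pou3f1 lies below WT in the untreated TPM table, and Etv5 in line KO2 lies below WT in all 4 treated tables.

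Fgf5, the secreted growth factor used as a standard marker of the primed epiblast, was near the limit of detection. The count table held 21 and 11 reads in WT, 11 and 7 in KO7 and 13 and 11 in KO8, with overlapping CPM in KO8 and lower values in KO7. The log2 fold change for the mean of the lines was -0.53 ± 0.38 (edgeR adjusted p 0.28), with -0.85 ± 0.46 in KO7 and -0.22 ± 0.43 in KO8. The untreated TPM libraries held 7 and 2 reads in WT and 1 and 4 in HMCES-KO.

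Fgf5 was read more often in the knockout than in WT in the treated tables as a whole. The 8 WT libraries held 12 reads in all, with 4 libraries at 0. Line KO1 held 15, 12, 0 and 0 reads under activin A, SB431542, BMP4 and LDN193189, and line KO2 held 6, 9, 12 and 14. Only line KO2 had reads under all 4 treatments. Under activin A both WT libraries were at 0. Set against the 3 reads per library that a count of 0 allows (0.689 and 0.697 TPM), the knockout mean of 2.52 TPM was 3.63-fold higher. That ratio takes the knockout mean, from 15 and 6 reads in 2 lines, as exact. By limma, Fgf5 was not called under activin A or within any other single treated table. Fgf5 passed the minimum of 1 TPM in 2 libraries only with the HMCES-KO libraries. The WT libraries ran from 0 through a median of 0.125 to 1.06 TPM. Its tests over the treated tables are therefore not independent of that filter. The log2(TPM + 1) difference was 0.95 ± 0.33 over both lines (limma adjusted p 0.040), 1.29 ± 0.38 in line KO2 (limma adjusted p 0.018) and 0.61 ± 0.38 in line KO1 (limma adjusted p 0.23), and KO2 minus KO1 was 0.67 ± 0.44 (limma adjusted p 0.43). The size of such a difference depends on the pseudocount: with 0.1 in place of 1 it was 2.03 (limma adjusted p 0.10), without a variance trend its adjusted p was 0.056, and edgeR on the recovered reads gave 2.92 ± 0.94 (adjusted p 0.021). The call over both lines was lost without any 1 of 11 of the 16 libraries (limma adjusted p 0.053 to 0.096), and the KO2 call without the KO2 library under BMP4 (0.071) or LDN193189 (0.075). Without treatment Fgf5 was not called in the count table and was not tested in the TPM table.

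**Figure D4:**
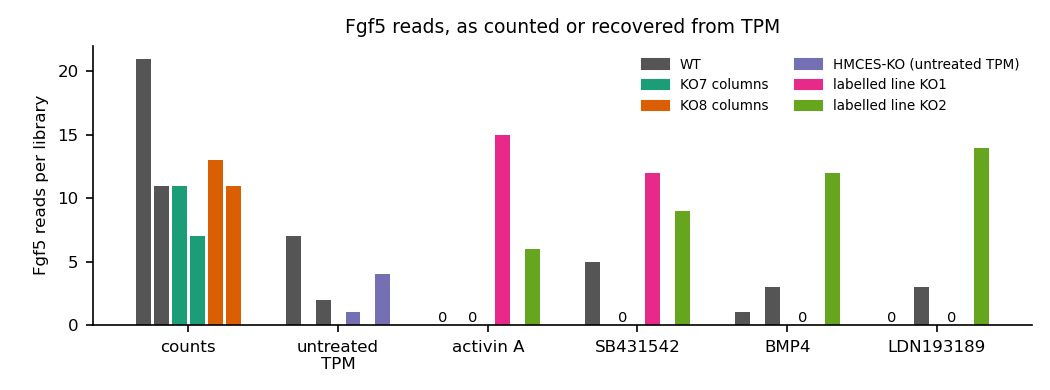
Fgf5 reads in each library (y axis, bars from 0), by table on the x axis and coloured by group or line, as counted in the count table or recovered from TPM elsewhere; a printed 0 marks a library without a read. No library held more than 21 reads, and the treated WT libraries held between 0 and 5.

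None of the members was called between ligand and inhibitor. Activin A against SB431542 was compared within WT (0.0159% of genes called by limma) and within HMCES-KO (0.103%), and the difference between the genotypes was tested as an interaction (0% of genes called, 477 genes at an unadjusted p below 0.05). BMP4 against LDN193189 was compared in the same way, with 0.0317% called in WT, 0.0238% in HMCES-KO and 0% in the interaction (624 genes at an unadjusted p below 0.05). Over these 6 comparisons, a member had an unadjusted p below 0.05 in 2 cases, Zic2 for activin A against SB431542 in WT (0.30 ± 0.13) and Zic5 for BMP4 against LDN193189 in WT (0.60 ± 0.22), and edgeR on the recovered reads called 0 members in each. For Zic5 the BMP4 against LDN193189 difference in HMCES-KO was -0.06 ± 0.22, and the interaction was -0.66 ± 0.31, not called. Each treatment was in a table of its own, so treatment and table cannot be told apart.

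The genes most alike each member were sought over the 16 treated libraries by Pearson's r of log2(TPM + 1) after taking out each table's mean, among 9311 genes. These points share the split between WT and HMCES-KO and the libraries' depth and scaling, so r is a description only. For Zic2 the nearest included Slc25a4 (0.99), the mitochondrial ADP/ATP carrier, and Fam166a (0.98). For Etv4 they were Tet1 (0.98), the methylcytosine dioxygenase, Trip12 (0.98) and Klf5 (0.98), a naive pluripotency factor. For Zic5 they were Slc9a3r2 (0.96), Ppp1r14b (0.96) and Hdgf (0.95). Among the members not called in both labelled lines over the treated tables, Pou3f1 had Zcchc3 (0.92), Dnmt3b (0.92), the de novo DNA methyltransferase that rises in the formative state, and Atg13 (0.92). Otx2 had Capg (0.83), Ovol2 (0.82) and Ift22 (0.82), and Etv5 had D5Ertd579e (0.95), Zc3h12a (0.94) and Zfp553 (0.92). Fgf5, with few reads, had Ckap5 (0.95), Tjp3 (0.89) and Pop1 (0.88).

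The other formative and primed genes moved both ways as well. Of 22 listed, 21 were tested in the count table, where 10 rose and 2 fell in the mean of the lines and 40.6% of all genes were called. The median log2 fold change was 0.18 against -0.01 over all genes. Cdh2 (1.01 ± 0.26), the N-cadherin gene, Sall2 (0.93 ± 0.14) and Mycn (0.75 ± 0.05) rose the most, and Tcf15 (-0.31 ± 0.08), a factor of cells leaving the naive state, and Rbpj (-0.20 ± 0.05), the Notch pathway factor, fell. Cdh2 and Tcf15 were called in KO8 (1.34 ± 0.29 and -0.47 ± 0.09) and not in KO7 (0.68 ± 0.30 and -0.14 ± 0.09), and Tcf15 was higher in the untreated TPM table (0.34 ± 0.04). By line, 8 rose and 2 fell in KO7 (38.2% of all genes called), and 9 rose and 5 fell in KO8 (38.9%). Without treatment, the TPM values had 6 higher and 6 lower of 21, where 16% of all genes were called, with a median of -0.07 against -0.06. These were led by Sall2 (0.59 ± 0.14), Fgf15 (0.57 ± 0.06) and Sox4 (0.48 ± 0.05) upwards and Grhl2 (-0.73 ± 0.08), Lef1 (-0.60 ± 0.13) and Foxd3 (-0.44 ± 0.05) downwards. The treated libraries had 8 higher and 5 lower of 22, where 34.5% of all genes were called, with a median of 0.19 against -0.04. These were led by Sall2 (1.01 ± 0.19), Fgf15 (0.61 ± 0.13) and Sox3 (0.59 ± 0.11) upwards and Tcf15 (-0.70 ± 0.07), Rbpj (-0.47 ± 0.16) and Zfp281 (-0.44 ± 0.06) downwards. Line KO1 had 6 higher and 6 lower (32.7% of all genes called) with a median of -0.04. Line KO2 had 8 higher and 5 lower (28.9%) with a median of 0.21. Sall2, Mycn and Sox4 were called higher in the mean of KO7 and KO8, in the untreated TPM table and over the treated tables. By line, Sox4 was higher in KO7 (0.88 ± 0.06) and lower in KO8 (-0.18 ± 0.07). Over the treated tables Sall2 and Fgf15 were called higher in line KO2 and not in line KO1, and Sox4 in line KO1 and not in line KO2. Mycn was called higher in KO7, KO8, line KO1 and line KO2. The family members Zic1 and Zic4 were tested neither in the counts nor in the treated tables.

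Against WT, naive pluripotency genes moved both ways, with falls most in excess of rises in the untreated TPM table and in line KO2. Of 16 listed, 6 rose and 5 fell in the mean of KO7 and KO8, where 40.6% of all genes were called. The median was 0.05 against -0.01 over all genes. The untreated TPM values had 2 higher and 7 lower (16% of all genes called), with a median of -0.13 against -0.06. The treated libraries had 4 higher and 6 lower (34.5% of all genes called), with a median of -0.01 against -0.04. Klf2 (1.18 ± 0.05, 0.54 ± 0.03 and 1.19 ± 0.07, in that order) and Fbxo15 (0.60 ± 0.05, 0.21 ± 0.04 and 0.26 ± 0.07) rose in each. Klf4, an early naive factor, fell in each (-0.56 ± 0.04, -0.45 ± 0.04 and -0.73 ± 0.07). By line, 8 rose and 5 fell in KO7 (median 0.09, 38.2% of all genes called), and 4 rose and 6 fell in KO8 (0.00, 38.9%). In line KO1 7 rose and 4 fell (0.10, 32.7%), and in line KO2 3 rose and 8 fell (-0.27, 28.9%). The medians over all genes were -0.07 in line KO1 and -0.02 in line KO2. Of the 16, 3 rose and 9 fell in KO8 against KO7, where 28.2% of all genes were called, with a median of -0.18 against 0.00 over all genes.

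The FGF and ERK list, which does not include the members Etv4 and Etv5, had calls in both directions. Their share was near that of all genes in the mean of KO7 and KO8 and in the untreated TPM table, and above it over the treated tables. Of 20 listed, 19 were tested in the count table, and 7 rose, led by the receptor gene Fgfr2 (0.85 ± 0.15) and the ERK phosphatase genes Dusp4 (0.70 ± 0.09) and Dusp5 (0.64 ± 0.13), while 2 fell, Egr1 (-1.17 ± 0.11) and Dusp9 (-0.66 ± 0.05), where 40.6% of all genes were called. Fgfr2, Dusp4 and Dusp5 were called in KO8 (1.85 ± 0.15, 1.23 ± 0.10 and 0.91 ± 0.15) and not in KO7 (-0.15 ± 0.18, 0.17 ± 0.10 and 0.38 ± 0.15), and each was higher in KO8 than in KO7. KO7 had 4 higher, led by Etv1 (0.88 ± 0.13), and 3 lower (38.2% of all genes called), and KO8 had 7 higher and 3 lower (38.9%). The untreated TPM values had 2 higher, Dusp4 (1.18 ± 0.08) and Dusp6 (0.48 ± 0.04), and Dusp9 lower (-0.36 ± 0.05), 3 of 19 tested against 16% of all genes. Under treatment, 4 rose and 8 fell of 20 tested, where 34.5% of all genes were called. Egr1, lower in the counts, was among the rises. Dusp6, higher in the untreated TPM table, was among the falls, and it was also called lower in KO8. The rises were led by the ligand gene Fgf8 (1.14 ± 0.41), and the falls by the feedback inhibitor gene Spry4 (-0.91 ± 0.05), Phlda1 (-0.82 ± 0.06) and Spred2 (-0.74 ± 0.08). Line KO1 had 1 higher and 9 lower (median -0.25, 32.7% of all genes called), and line KO2 had 5 higher and 7 lower (median 0.06, 28.9%).

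**Figure D5:**
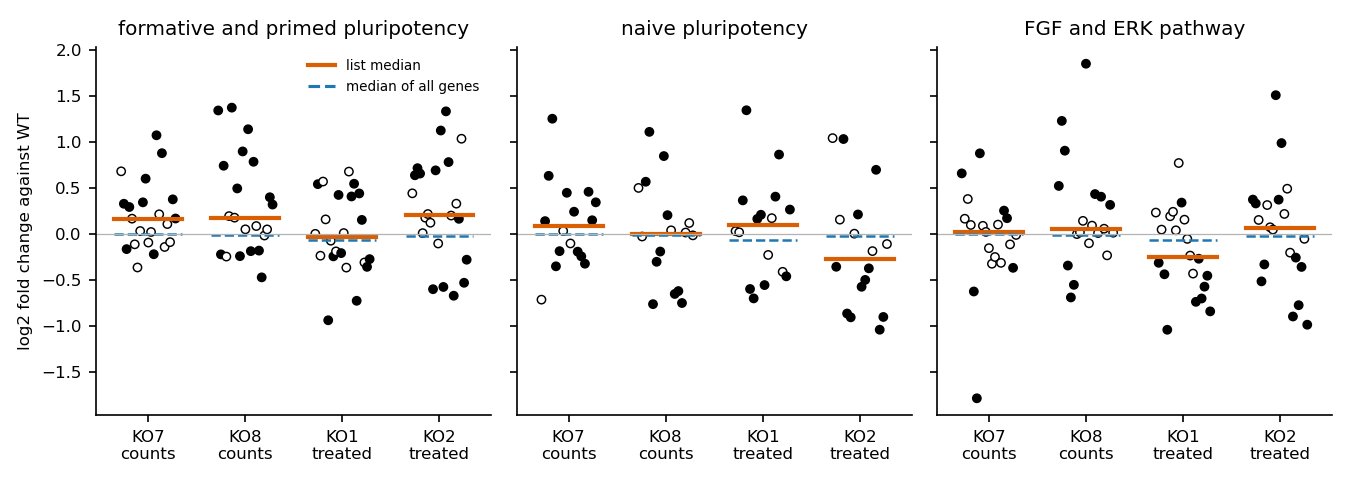
Log2 fold change against WT (y axis) of each tested gene of 3 lists, by knockout line on the x axis (KO7 and KO8 from the counts, KO1 and KO2 over the treated tables); filled points have an adjusted p below 0.05, the orange bar is the list's median and the dashed blue bar the median of all genes tested. Genes of each list lie on both sides of 0 in every line, and the naive median is lowest in line KO2 (-0.27).

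Genes listed for the primitive streak, mesoderm and endoderm had more falls than rises in the counts, and the falls were in endoderm genes. By counts, 1 of 10 tested rose, Evx1 (1.99 ± 0.44), and 6 fell, led by the endoderm genes Sox17 (-2.74 ± 0.34), Dab2 (-2.65 ± 0.13) and Foxa2 (-1.90 ± 0.40), where 40.6% of all genes were called. In KO7 none rose and 5 fell (38.2% of all genes called), and in KO8 Evx1 and T (1.55 ± 0.48) rose and 6 fell (38.9%). Only Gata6 fell in the untreated TPM table (-0.93 ± 0.22), 1 of 9 tested against 16% of all genes. None rose and 4 fell of 12 in the treated tables, led by Gata6 (-1.17 ± 0.23), Sox7 (-0.90 ± 0.22) and Foxa2 (-0.63 ± 0.19), near the 34.5% of all genes called. Line KO1 had none higher and 4 lower (32.7% of all genes called), and line KO2 had Mixl1 higher (1.02 ± 0.29) and 2 lower (28.9%).

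The split of all calls into higher and lower moved with the scaling. In the counts 2677 genes were higher and 2799 lower, against 1993 and 3497 with library sizes alone, 2160 and 3227 with upper quartile scaling. Of the untreated TPM calls, 772 were higher and 1356 lower, against 1073 and 931 after scaling by the median of ratios, and of the treated calls 1737 and 2616, against 2180 and 2157. The directions of Zic2, Zic5 and Etv4 were the same under each scaling run.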

How the data were processed

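Whole-number counts per gene for 6 libraries were made by the authors with featureCounts 2.0.1 on mm10 RefSeq exons, per the file headers, and the other 5 deposited tables held TPM computed by the authors. FastQC 0.11.5, Bowtie2 2.3.3, SAMtools 1.9 and DESeq2 are named per the submitters' processing notes. What filtered the gene lists of the treated tables is not given.

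Counts were tested with edgeR 4.0.16 (quasi-likelihood, TMM, filterByExpr, 3 groups of 2). For TPM, log2(TPM + 1) values were fitted in limma 3.58.1, the prior variance following the mean, for genes with at least 1 TPM in 2 libraries; fold changes on this scale understate low genes. The 4 treated tables were joined over 12928 shared genes, rescaled to 1000000 per library, and fitted as 8 groups; line effects were fitted with treatment as a covariate. TPM keeps no depth, so whole reads were recovered within 0.01 reads: all values of the untreated table, and the genes with a solvable unit in the treated tables (98.9%). Intervals and floors cover counting error or library spread only. Same-line libraries paired the treated tables (r of deviations 0.23 to 0.32 over 6 pairs; same-numbered WT libraries -0.02 to 0.01). Fits were tested on simulated data. Other settings were tried 1 at a time, among them DESeq2 1.42.0, and edgeR on recovered reads was added after seeing the data. The members and lists were chosen with earlier results of these data known. All 7 members are named throughout; of each other list, up to 3 called genes with the largest change in each direction per main comparison, and the 3 genes most alike each member. A few genes that this rule or a list would name are not reported here.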

Additional observations from a re-analysis of the deposited data

Results flagged for a closer look

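Zic2 in KO8 replicate 1 of the count table stood apart from the other 3 HMCES-KO libraries, at 46.2 CPM against 55.8 to 56.3 CPM; its gap to the nearest library was 0.948 of the range of the 4, above the limit of 0.829, and chance alone does this in about 1 in 20 groups (7 members were looked at). Otx2 differed between the untreated lines, with KO8 minus KO7 at 0.74 on the log2 scale (edgeR adjusted p 3.6e-05). Pou3f1 differed between the same lines in the other direction, at -0.31 (edgeR adjusted p 0.015). Etv5 differed between the labelled lines over the treated tables, with KO2 minus KO1 at -0.32 (limma adjusted p 0.044). The causes of these differences were not tested.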

How the results depend on the processing

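The values of the 7 genes were recomputed 2768 times over all comparisons and alternatives: the call was the same in 2675, lost in 77 (52 of them on leaving out 1 library) and gained in 16 (11 on leaving out 1 library). No called value changed sign, while 86 values called in neither fit did; the causes were not tested. The replicate number as a block in the count table and the untreated TPM table, where same-numbered libraries did not deviate together (r -0.025 to 0.001 and 0.032), changed no call. With the replicate block in the treated tables, Etv5 was called over both lines (-0.20, adjusted p 0.013) and under activin A, and 0 of 7 members, in place of 1, were called for KO2 against KO1; it changed no other call.

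Counts of called members moved as follows. With each table fitted alone, 1 was called under BMP4 in place of 2, and 0 under LDN193189 in place of 3. Without the variance trend, 0 were called in the untreated TPM table in place of 4, and 0 for KO2 against KO1 in place of 1. With DESeq2, 3 were called in KO7 in place of 6, and 1 for KO8 against KO7 in place of 2. With the 4 HMCES-KO libraries of the count table as 1 group, 2 were called in place of 4, and 1552 genes in place of 5476. EdgeR on recovered reads called 2 for KO2 against KO1. Of the untreated TPM genes, 2128 were called, against 3587 by edgeR on recovered reads, 339 without the trend and 1311 without a filter. Leaving out 1 library gave 1 member under BMP4, 2 in the untreated TPM table, 3 in KO7, 1 for KO8 against KO7, 2 in KO8 and 0 to 2 for KO2 against KO1, where these counts moved; genes called in the untreated TPM data ran from 619 (without WT replicate 1; 651 without WT replicate 2) to 2418 (without HMCES-KO replicate 1). Where an arm was left with 1 library, it was assumed to vary like the other groups. Depth limits Fgf5 most, at 0 to 21 reads per library.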
